A study of Mus musculus with 21 samples.

Results

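The clearance of dying cells by macrophages was followed through 8 genes: the ligand genes Gas6 and Pros1, the bridging gene Mfge8, the receptor genes Mertk, Axl, Tyro3 and Timd4, and Cd5l. They were matched by gene symbol, 8 of 50645 genes in the fatty acid table and 8 of 50644 in the Western diet table. The set was assembled by function with values of these libraries in view, so its counts and p-values are descriptions and no independent support for any direction. For Cd5l, whose response to fatty acid and to TAK242 was already known when the set was made, the values of the fatty acid table are given with no p-value. Testing was limited to genes that reached 1 in at least 3 libraries of a table, which 6 of the 8 did in each table and Tyro3 and Timd4 did not. The share of all genes whose libraries do not overlap between compared groups was not counted. A lack of overlap is therefore given as a description of the values only.

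Dying cells expose phosphatidylserine on their surface. The vitamin K-dependent proteins Gas6 and protein S (Pros1) bind this lipid and, with their other end, the receptor tyrosine kinases Tyro3, Axl and Mertk, known together as TAM receptors; Mertk carries out uptake by resting macrophages, and Axl is known as a receptor of inflamed tissue. Mfge8 links phosphatidylserine to integrins, and Timd4 binds the lipid directly. Cd5l encodes a secreted protein of tissue macrophages, also called AIM, that binds lipids and dead-cell debris, and both Cd5l and Mertk are known targets of the sterol-sensing LXR nuclear receptors.

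Transcripts were measured in total RNA of macrophages grown from bone marrow of C57Bl6/J mice, in 21 libraries that form 7 groups of 3. Marrow came from donors on standard chow or on a Western diet (high in fat, in sugar and in cholesterol) over 24 weeks, a number that the labels also give as the donors' age, and every culture was grown in medium with L929 cell supernatant, a source of macrophage growth factor. The fatty acid table held 4 groups of chow donors: untreated cells, cells given 100 ng/ml lipopolysaccharide (LPS) of E. coli for 24 h from day 7, cells given palmitic acid with oleic acid (1:3, 10 mM in all; called fatty acid below) for the first 4 days and then washed before LPS, and cells given the same fatty acid with 200 nM TAK242, an inhibitor of the LPS receptor TLR4, before LPS. The second table, called the Western diet table, has chow donors again as untreated controls (replicates 4 to 6), beside cells labelled Western diet without LPS and Western diet with LPS (replicates 1 to 3 each). No group had fatty acid without LPS or TAK242 without fatty acid, so an effect on the LPS response and an effect present without LPS cannot be told apart. The labels do not say whether a replicate is an animal, a pool or a dish, so p-values measure the spread between these libraries, which may be technical. Cells differentiated in a dish also lack the signals of the tissues in which Timd4 and Cd5l are best known.

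The deposited values carry no stated unit and behave like FPKM, that is, per gene length and library depth, and every level below is such a value. Library sums lay between 321532 and 386023, and 8803 to 10145 genes reached a value of 1. All 8 markers of macrophages reached 1 in every library, and markers of T cells and erythroid cells summed to at most 0.472 in each library. In the Western diet table, Ccl5, a chemokine gene induced by LPS, stood against the LPS label in 4 of 6 Western diet libraries. Its values were 7846, 13.7 and 10970 where the label gives no LPS, 0.463, 10.5 and 6905 where it gives LPS, and 1.57 to 2.38 in the chow controls. These groups are therefore named as labelled, and directions between them are by label only.

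The promoters of the 6 genes tested are shown first, because LPS left their transcripts at very different levels. All 8 genes matched RefSeq promoters of GRCm38.p6, which run from 250 bases before the annotated start to 50 after it. Gene coordinates given further on are those of the deposited tables, also on GRCm38, whose gene ends differ from the RefSeq starts for some members. The difference is largest for Tyro3, whose window (chr2:119799264-119799563) lies inside the deposited gene, which starts at 119797733. The 250 bases before the start are printed 5′ to 3′ on the strand of the gene. Capitals mark letters searched on either strand: GGGACT or GGGAAT (kappa B motif), GAAAGT (interferon response motif), AGGTCA (nuclear receptor motif), TGCTGAC (MAF motif) and TGACTCA (AP-1 motif).
Gas6, chr8:13494536-13494785, minus strand: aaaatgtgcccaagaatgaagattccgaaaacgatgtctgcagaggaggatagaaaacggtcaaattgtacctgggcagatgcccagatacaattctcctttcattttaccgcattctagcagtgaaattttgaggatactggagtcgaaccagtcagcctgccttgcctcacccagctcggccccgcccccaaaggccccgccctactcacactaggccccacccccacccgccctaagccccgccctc
Pros1, chr16:62854057-62854306, plus strand: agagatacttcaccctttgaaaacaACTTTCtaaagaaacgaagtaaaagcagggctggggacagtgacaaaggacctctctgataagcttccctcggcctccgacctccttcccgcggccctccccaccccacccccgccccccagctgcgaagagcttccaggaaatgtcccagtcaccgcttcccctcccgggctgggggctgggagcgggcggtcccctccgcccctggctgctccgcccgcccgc
Mfge8, chr7:79149061-79149310, minus strand: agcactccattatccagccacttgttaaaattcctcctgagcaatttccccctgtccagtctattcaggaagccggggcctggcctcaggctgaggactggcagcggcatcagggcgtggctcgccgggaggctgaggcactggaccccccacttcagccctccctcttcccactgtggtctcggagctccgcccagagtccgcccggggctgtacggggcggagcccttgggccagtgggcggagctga
Mertk, chr2:128698665-128698914, plus strand: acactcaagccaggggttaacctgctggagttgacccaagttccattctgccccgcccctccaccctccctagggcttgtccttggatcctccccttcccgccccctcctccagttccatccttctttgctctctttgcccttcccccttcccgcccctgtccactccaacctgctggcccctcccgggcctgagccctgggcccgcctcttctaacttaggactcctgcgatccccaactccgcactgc
Axl, chr7:25788734-25788983, minus strand: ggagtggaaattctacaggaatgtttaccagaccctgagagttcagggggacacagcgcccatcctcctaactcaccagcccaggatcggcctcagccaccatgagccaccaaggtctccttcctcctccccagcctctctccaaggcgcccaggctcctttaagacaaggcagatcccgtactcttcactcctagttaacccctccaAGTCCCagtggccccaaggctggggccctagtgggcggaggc
Cd5l, chr3:87357631-87357880, plus strand: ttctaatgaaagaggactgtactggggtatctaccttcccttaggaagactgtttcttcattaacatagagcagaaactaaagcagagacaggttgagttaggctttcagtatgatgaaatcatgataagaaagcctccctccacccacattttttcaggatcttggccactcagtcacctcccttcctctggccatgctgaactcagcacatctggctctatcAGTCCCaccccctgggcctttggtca

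The Cd5l window was unlike the others in composition, with 46.3% G and C and 0 CpG pairs in its 300 bases, against medians of 52.7% and 7 over all 32851 promoters. The other 5 windows held 58.3% to 66.7% G and C and 6 (Axl) to 21 (Pros1) CpG pairs. Kappa B letters lay in the windows of Cd5l (26 bases before the start), Axl (42 before) and Mertk (28 after, outside the printed stretch), and in 29.3% of all promoters. Interferon response letters lay in the windows of Pros1, Tyro3 and Timd4 and in 14.3% of all promoters. Nuclear receptor letters and MAF letters were found in Timd4 alone among the 8, and in 16.3% and 4.67% of all promoters. AP-1 letters were in none of the 8 and in 5.2% of all promoters. A match is a run of letters, not a site.

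The first comparison asks what LPS did to these genes in macrophages of chow donors. Both TAM ligand genes, Mfge8 and Cd5l were below their untreated level, while the receptor genes Mertk and Axl did not pass the test. Gas6 (chr8:13465374-13494490, minus strand) was the most abundant of the 8 genes in untreated cells, at 307, 358 and 333 in the 3 libraries, and stood at 5.99, 9.76 and 13.6 with LPS. The LPS libraries thus kept 2.94% of the untreated mean, and the change in log2(value + 1) was -5.01 with a standard error of 0.21 (limma, adjusted p = 7.73e-09). Pros1 (chr16:62854307-62929346, plus strand), the gene of protein S, was 12.5, 13.4 and 14.5 in untreated cells and 1.38, 2.09 and 2.18 with LPS, a change of -2.34 ± 0.12 (standard error; limma, adjusted p = 3.06e-08). No LPS library of either ligand gene overlapped an untreated one. Gas6 exceeded Pros1 by 22.9- to 26.7-fold in untreated libraries and by 4.35- to 6.23-fold in LPS libraries, so the ligand that was more abundant also lost more.

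Mfge8 (chr7:79133768-79149060, minus strand), whose product tethers dying cells to integrins, was 90.6, 108 and 83.3 in untreated libraries and 41.1, 38.5 and 32.5 with LPS. Its groups did not overlap, and it fell by 1.31 ± 0.12 on the log2 scale (limma, adjusted p = 4.01e-06), the smallest fall of the 4. Cd5l (chr3:87357881-87371073, plus strand) was 77.9, 70.6 and 90.6 untreated and 1.17, 2.01 and 2.95 with LPS. That is 2.57% of the untreated mean, close to the share that Gas6 kept, and a change of -4.76 ± 0.21.

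Mertk (chr2:128698956-128802894, plus strand), the uptake receptor of resting macrophages, was 25.5, 32.1 and 34.2 in untreated libraries and 14.5, 21.8 and 29.3 with LPS. The groups overlapped, and the change of -0.51 ± 0.21 did not pass (limma, adjusted p = 0.0535). It did pass without LPS replicate 3 (-0.74, adjusted p = 0.00525) and without untreated replicate 1 (-0.63, adjusted p = 0.038). Axl (chr7:25757273-25788705, minus strand), the receptor of inflamed tissue, was low in untreated cells at 1.88, 2.29 and 3.10 and spread widely with LPS at 2.03, 5.10 and 7.05. Its change of 0.65 ± 0.30 did not pass (limma, adjusted p = 0.0849), but it passed without LPS replicate 1 (1.05, adjusted p = 0.00118) and after median-ratio scaling between libraries (0.92, adjusted p = 0.02).

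Tyro3 (chr2:119797733-119818104, plus strand), the TAM receptor known from brain, stayed between 0.00344 and 0.310 over all 21 libraries. Timd4 (chr11:46810800-46844332, plus strand), a receptor of resident macrophages of liver, spleen and peritoneum, reached at most 0.0505 and was listed at 0 in 10 of the 21 libraries. Tyro3 was 0.0348 to 0.180 with LPS alone, 0.00378 to 0.0183 with fatty acid before LPS and 0.00630 to 0.0338 with TAK242 added, so both pretreated groups lay below LPS alone with no overlap, at levels far under the testing limit of 1. Timd4 libraries overlapped in all 9 comparisons, as did those of Tyro3 in the other 7. No fold change is given for either, and the receptors of the set that were expressed in these cultures were Mertk and Axl.

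With LPS, 0 of the 6 tested genes were called higher and 4 lower, where 13.8% and 47.9% of all 10476 genes tested were. The median change of the 6 was -1.82, against -0.31 over all genes. Median-ratio scaling moved that median of all genes to 0.01, so changes near -0.31 are no departure from the rest, and this includes Mertk. With that scaling 27.2% of all genes were called higher and 26.9% lower, and of the 6 genes 1 (Axl) higher and 4 lower. The LPS libraries also differed among themselves. Replicate 1 was the lowest of the 3 for Gas6, Pros1, Mertk, Axl and Cd5l and the highest for Mfge8, and the sum of 8 stromal markers, of which Lum was listed at 0 in the LPS group, was 34.1 in replicate 1 against 17.8 and 14.3 in the others and 4.32 to 9.13 in untreated cells. Markers of B cells (6, with Pax5 at 0) went the other way, from sums of 7.59 to 7.94 untreated to 0.0511 to 0.394 with LPS. Only 2 of these 6 reached 1 in any untreated library and 0 did with LPS, so the sums do not show that B cells were present. The part of other cell types in the changes was not tested, and fewer cells of a type and less RNA per cell cannot be told apart in bulk libraries.

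**Figure D1:**
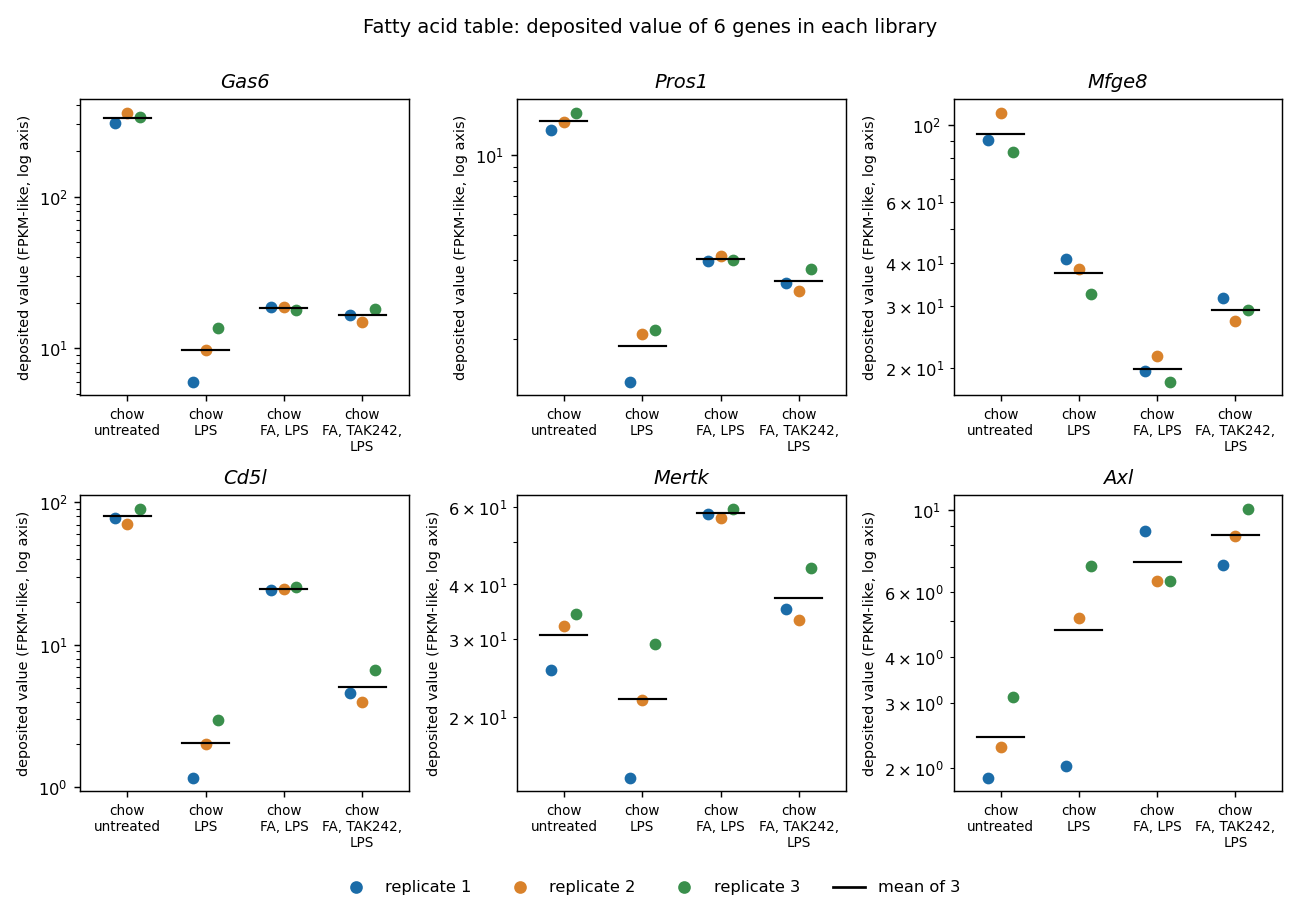
Deposited value (FPKM-like, log axis) of 6 genes in each of the 12 libraries of the fatty acid table, by group, with points coloured by replicate and a bar at the mean of 3. Gas6 fell from 307 to 358 in untreated libraries to at most 18.8 in every LPS-treated library, while Cd5l stood at 24.3 to 25.4 with fatty acid before LPS, above the 1.17 to 2.95 of LPS alone.

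Fatty acid during the first 4 days of culture, followed by LPS, was then set against LPS alone. All 3 fatty acid libraries lay above all 3 LPS libraries for Cd5l, Mertk, Gas6 and Pros1 and below them for Mfge8. Of the 6 tested genes 4 were called higher and 1 lower, where 21.8% and 15.3% of all genes were; nothing is read from this, since the set was made with this comparison in view. The median change was 0.86 for the 6 and 0.06 for all genes.

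Cd5l was 24.3, 24.5 and 25.4 with fatty acid, against 1.17, 2.01 and 2.95 with LPS alone, a difference of 3.12 ± 0.21 on the log2 scale. Those 3 libraries lay close together and held 31.0% of the untreated mean, where LPS alone left 2.57%. Mertk was 57.9, 56.7 and 59.6, above the highest LPS library at 29.3 and also above the highest untreated library at 34.2. It rose by 1.42 ± 0.21 over LPS alone (limma, adjusted p = 9.76e-04) and by 0.91 ± 0.21 over untreated cells (limma, adjusted p = 0.00295), so the receptor gene stood at 190.0% of the untreated mean.

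The ligands rose from a much lower base. Gas6 was 18.6, 18.8 and 17.8 with fatty acid (0.91 ± 0.21 over LPS alone; limma, adjusted p = 0.00665), and Pros1 was 3.96, 4.16 and 3.99 (0.82 ± 0.12; limma, adjusted p = 8.50e-04). Against untreated cells they still stood at 5.54% and 29.9%. In the same libraries, then, the receptor gene Mertk was above and both ligand genes were below their untreated level.

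Mfge8 moved against the other members: it was 19.6, 21.6 and 18.2 with fatty acid, lower than every LPS library (32.5 to 41.1), and fell by 0.88 ± 0.12 (limma, adjusted p = 7.49e-04). It thereby held 21.0% of the untreated mean, the lowest Mfge8 level in the table. Axl was 8.77, 6.41 and 6.41, overlapping the LPS libraries; its difference of 0.62 ± 0.30 did not pass (limma, adjusted p = 0.131) except without LPS replicate 3 (0.92, adjusted p = 0.0254). Against untreated cells Axl rose by 1.26 ± 0.30 (limma, adjusted p = 0.00384), with no overlap. All 6 genes were called against untreated cells, 2 higher and 4 lower, where 15.2% and 44.9% of all genes were (27.3% and 29.1% after median-ratio scaling, with the members' counts at 2 and 4 again). The stromal marker sum was 5.11 to 7.12 with fatty acid, near that of untreated cells, and the B cell marker sum was 2.06 to 2.65, between those of untreated and LPS libraries; the part of either in the results was not tested.

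**Figure D2:**
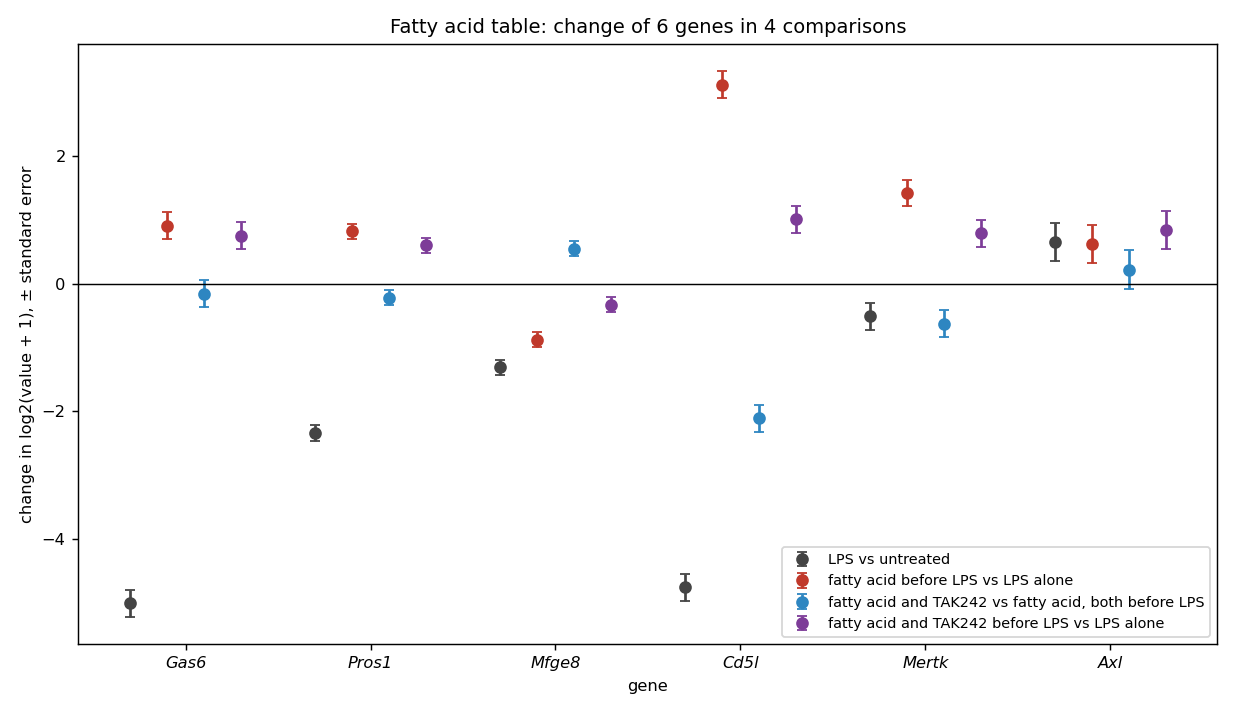
Change in log2(value + 1) with its standard error (bars) for 6 genes in 4 comparisons of the fatty acid table, 3 libraries a group. Cd5l has the largest change in both the fatty acid comparison (3.12) and the TAK242 comparison (-2.11), and Mfge8 has the opposite sign to Cd5l in both (-0.88 and 0.55).

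The next comparison adds TAK242 to the fatty acid, with LPS given afterwards in either group. Cd5l was 4.57, 4.00 and 6.64 with TAK242 against 24.3 to 25.4 without it, a difference of -2.11 ± 0.21 with no overlap. Its mean was then 6.36% of the untreated mean, nearer to that of LPS alone (2.57%) than to that of fatty acid (31.0%). Mfge8 was 31.7, 27.2 and 29.2, above each library without TAK242, and rose by 0.55 ± 0.12 (limma, adjusted p = 0.0339); leaving out any of the 6 libraries ended that call (adjusted p 0.0695 to 0.121), as did testing with no filter on low values (adjusted p = 0.0691).

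The TAM genes did not pass in the fit over all libraries. Mertk was 35.2, 33.2 and 43.6 with TAK242, below all 3 libraries without it, but the difference of -0.63 ± 0.21 passed in a fit of only the 6 libraries compared (adjusted p = 0.0243) and not with the spread of all 12 (limma, adjusted p = 0.107). Gas6 was 16.5, 14.8 and 18.1 and differed by -0.16 ± 0.21 (limma, adjusted p = 0.689). Pros1, at 3.26, 3.05 and 3.71, differed by -0.22 ± 0.12 (limma, adjusted p = 0.29). Axl, at 7.08, 8.47 and 10.1, differed by 0.22 ± 0.30 (limma, adjusted p = 0.704). Of the 6 genes, 1 was called higher and 1 lower, where 3.01% and 1.68% of all genes were, and the median change was -0.19. The gene called lower is Cd5l, whose response to TAK242 was known when the set was made, so nothing is read from this count. A miss of the threshold does not show that TAK242 left the TAM genes alone. The stromal marker sum was 13.9 to 16.7 with TAK242, against 5.11 to 7.12 without it and 14.3 to 34.1 with LPS alone. The B cell marker sum was lower with TAK242, at 0.579 to 0.933 against 2.06 to 2.65 without it, and the part of either in the differences was not tested.

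Cells given fatty acid and TAK242 were also set against LPS alone. Cd5l differed by 1.01 ± 0.21, and Pros1 rose by 0.60 ± 0.12 (limma, adjusted p = 0.028). All 3 libraries lay above all LPS libraries for Gas6 (0.75, adjusted p = 0.0559), Mertk (0.79, adjusted p = 0.052) and Axl (0.84, adjusted p = 0.102), and below them for Mfge8 (-0.33, adjusted p = 0.104), with none of these past limma's threshold. Nothing is read from that lack of overlap, since 3122 of all 10476 genes had an unadjusted limma p under 0.05 here. The 2 genes called higher out of 6, with 0 lower, stand beside 4.05% and 1.84% of all genes (4.32% and 5.33% after median-ratio scaling). Cd5l is 1 of the 2, so nothing is read from this count either. Calls in this comparison rested on single libraries for all genes alike: when LPS replicate 1, LPS replicate 2, TAK242 replicate 1 or TAK242 replicate 3 was left out, 0 of the 6 genes and at most 0.277% of all genes were called, and without LPS replicate 3 all 6 and 17.0% of all genes were. Against untreated cells, Axl was the only member called higher (1.48 ± 0.30; limma, adjusted p = 0.0015) and Gas6, Pros1, Mfge8 and Cd5l were called lower, where 14.1% and 43.9% of all genes were (25.8% and 26.7% after median-ratio scaling). Mertk, at 122% of the untreated mean, did not pass (0.28, adjusted p = 0.274) except after median-ratio scaling (0.58, adjusted p = 0.0304).

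The balance of the receptors differed between groups as well. The value of Mertk was 11.0 to 14.1 times that of Axl in untreated libraries, 4.16 to 7.17 times with LPS, 6.60 to 9.30 times with fatty acid before LPS, and 3.92 to 4.96 times with TAK242 added. Both genes are expressed per length, so the ratio compares their levels. The untreated range lay above all others, and the fatty acid range lay above that of TAK242, but the LPS range overlapped both of the pretreated groups. No test was made on the ratio.

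**Figure D3:**
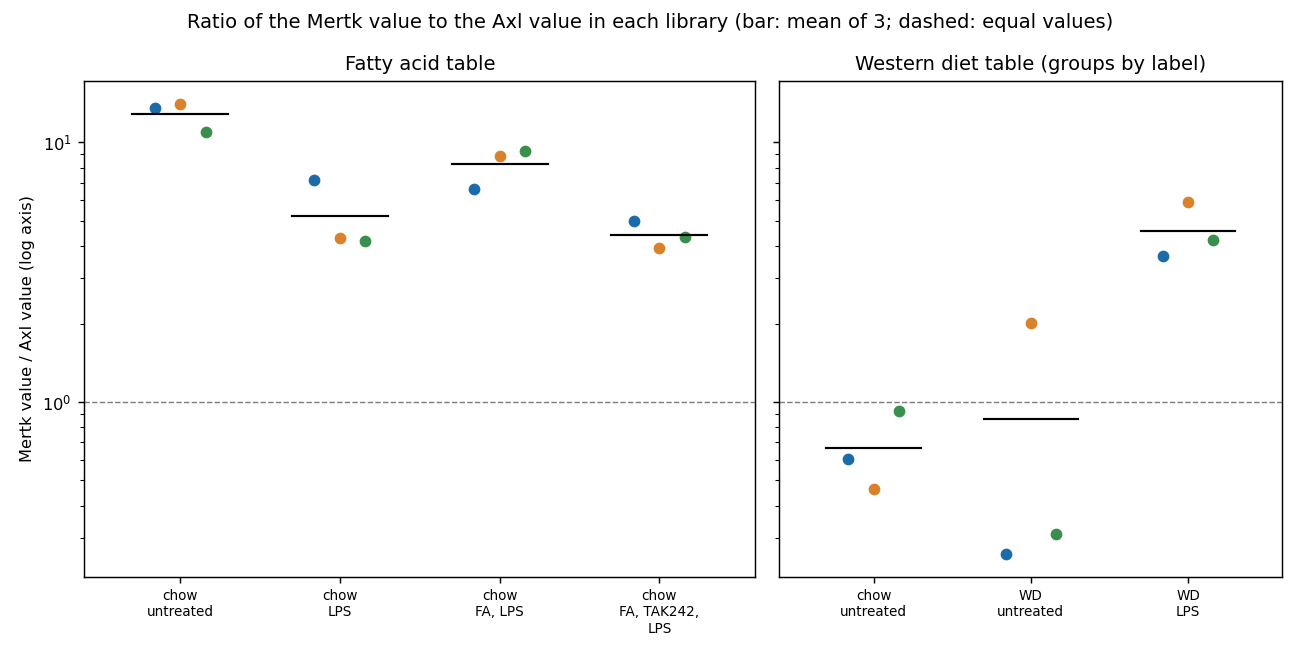
Value of Mertk divided by the value of Axl in each library (log axis), for the fatty acid table and the Western diet table, with bars at the mean of 3 and a dashed line where both genes are equal. Mertk exceeded Axl in all 12 libraries of the fatty acid table (3.92 to 14.1 times). In the Western diet table it was below Axl in the 3 chow controls (0.464 to 0.924) and in replicates 1 and 3 labelled Western diet without LPS (0.260 and 0.311).

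In the Western diet table, the members followed Ccl5 in part and the label in part. Gas6 was 139.9, 122 and 142 in chow controls, 5.41, 145 and 4.78 under the label Western diet without LPS, and 424, 463 and 34.4 under the label Western diet with LPS. The 3 lowest values belong to the libraries with Ccl5 between 6905 and 10970, which are replicates 1 and 3 labelled without LPS and replicate 3 labelled with LPS. Pros1 had its 3 lowest values in the same libraries: it was 13.0, 10.2 and 14.0 in chow controls, 0.793, 11.2 and 0.914 labelled without LPS, and 10.2, 10.1 and 3.30 with LPS by label. By label, Gas6 differed by 3.45 ± 1.37 (limma, adjusted p = 0.261) and Pros1 by 1.22 ± 0.73 (adjusted p = 0.394), and neither passed. The B cell marker sum was also lowest in the 3 libraries with high Ccl5, at 0.316, 0.342 and 1.77 against 4.03 to 11.4 in the other 6. The sum of 6 dendritic cell markers was highest there, at 2.81, 3.75 and 0.764 against at most 0.167. Only 1 of these 6 reached 1 in any library labelled Western diet without LPS, and 0 did in those labelled with LPS. Sums this low do not show that such cells were present. The part of other cell types in the Gas6 and Pros1 values was not tested.

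Cd5l and Mfge8 were high in all 3 libraries labelled Western diet with LPS, whatever their Ccl5. Cd5l was 18.9, 35.3 and 5.72 there, against 0.703, 0.799 and 0.661 in those labelled without LPS and 0.953, 0.785 and 1.37 in chow controls. Mfge8 was 83.5, 60.7 and 22.7, against 3.64, 5.89 and 3.47 without LPS by label and 6.68, 5.67 and 5.18 in chow controls. Untreated chow libraries of the fatty acid table held 70.6 to 90.6 for Cd5l and 83.3 to 108 for Mfge8, so high values also occurred without LPS. With LPS by label against without, Mfge8 rose by 3.25 ± 0.44 (limma, adjusted p = 0.0179) and Cd5l by 3.30 ± 0.52 (adjusted p = 0.0319). Against chow controls the rises were 2.87 ± 0.44 (limma, adjusted p = 0.0198) and 3.07 ± 0.52 (adjusted p = 0.0332). These calls rested on single libraries. Against the libraries labelled without LPS, both genes passed in 2 of 6 fits that left out a library (replicate 3 labelled with LPS, or replicate 2 labelled without), with adjusted p up to 0.108 for Mfge8 and 0.163 for Cd5l in the others. Neither passed with the replicate number as a block (adjusted p = 0.235 for each) or with only the 6 libraries compared (0.167 and 0.231). Against chow, both passed in 1 of 6 such fits, the one without replicate 3 labelled with LPS (adjusted p up to 0.111 and 0.166 in the others). With no filter on low values Cd5l passed in neither comparison (adjusted p = 0.0723 and 0.0704). Outside the libraries labelled with LPS, Cd5l reached 1 only in the chow control at 1.37. It thus met the testing limit through the group in which it is high, and its p-values here are no support for that direction. Replicate 3 labelled with LPS, where Ccl5 was high, was the lowest of the 3 for both genes. The sum of 7 neutrophil markers was 7.63 to 11.4 with LPS by label, 1.71 to 2.06 without (Ly6g, Elane and Retnlg at 0) and 5.93 to 9.43 in chow controls. The stromal sum was 1.32 to 2.48, 2.38 to 6.02 and 0.125 to 0.623 in the same order, and the macrophage sum was 9460 to 11700, 5840 to 15700 and 10300 to 12200. The part of these cells in the results was not tested.

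Mertk was also higher in each library labelled Western diet with LPS, at 22.2, 22.2 and 35.5, than in any labelled without (8.55, 13.1 and 9.77) or any chow control (16.4, 11.1 and 16.3). The differences of 1.25 ± 0.26 and 0.81 ± 0.26 did not pass (limma, adjusted p = 0.075 and 0.222). Axl was 6.05, 3.79 and 8.47 with LPS by label, 32.9, 6.47 and 31.4 without, and 27.0, 23.9 and 17.7 in chow controls. Its difference from the chow controls, -1.78 ± 0.57, did not pass (limma, adjusted p = 0.215) although the libraries did not overlap; it passed in a fit of only those 6 libraries (adjusted p = 0.0273). Among the libraries labelled without LPS, the Axl values of replicates 1 and 3, where Ccl5 was high, exceeded that of replicate 2.

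**Figure D4:**
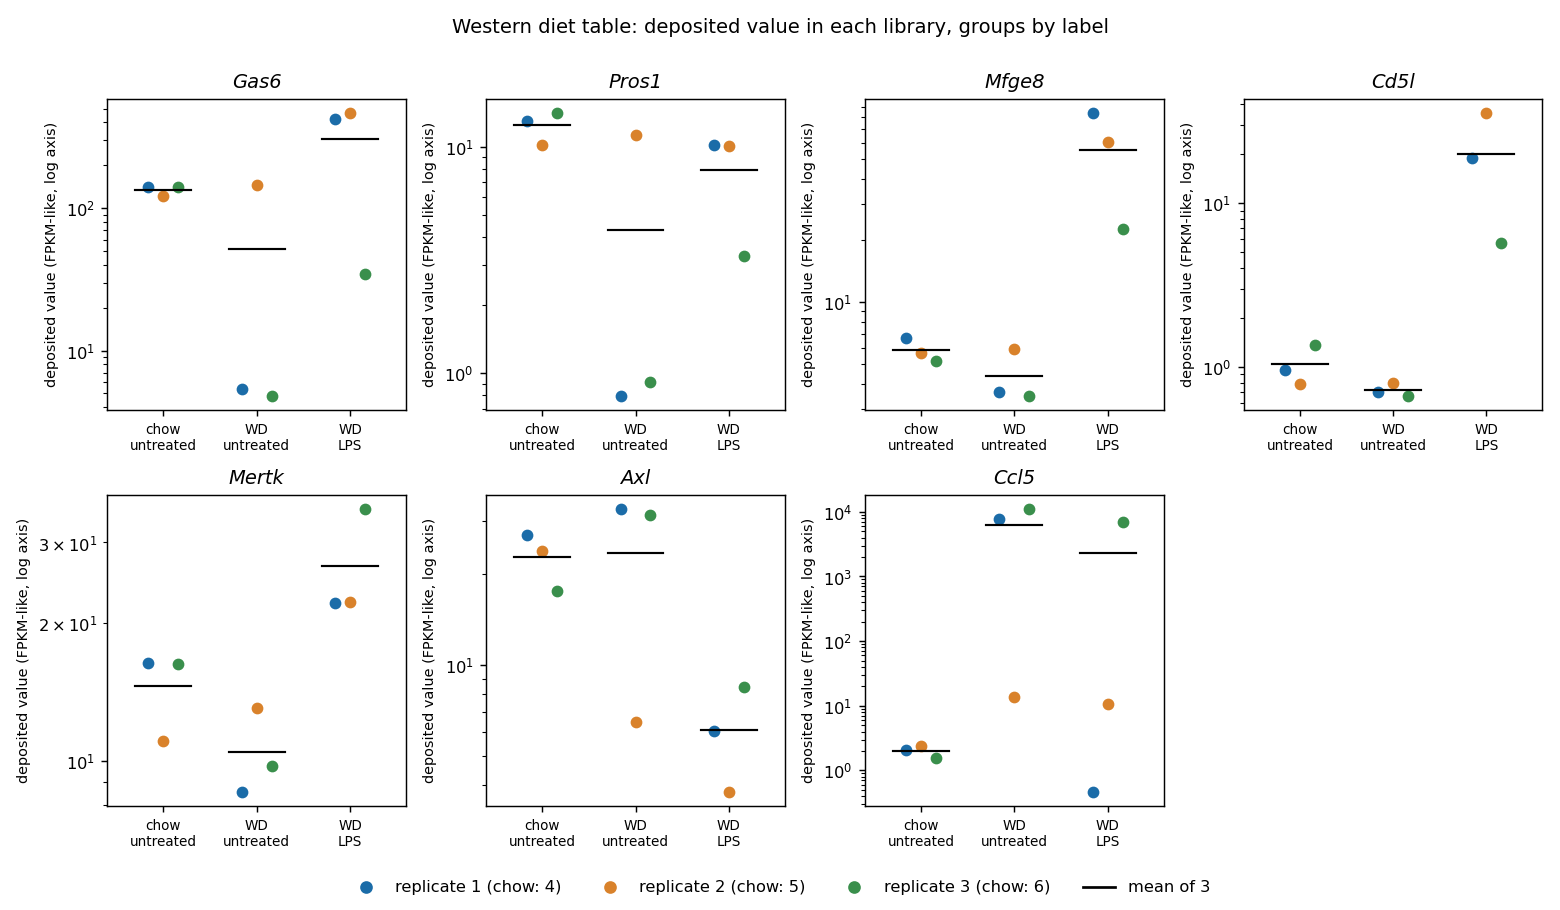
Deposited value (FPKM-like, log axis) of 6 genes and of Ccl5 in each of the 9 libraries of the Western diet table, grouped by label, with points coloured by replicate and a bar at the mean of 3. Gas6 and Pros1 are lowest in the 3 libraries with Ccl5 of 6905 to 10970, while Cd5l and Mfge8 are above all others in the 3 libraries labelled with LPS (5.72 to 35.3 and 22.7 to 83.5).

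By label, 2 of the 6 genes were called higher with LPS than without on the Western diet and 0 lower, where 0.678% and 0.281% of 10331 genes were, and 2 higher and 0 lower against chow controls, where 0.774% and 0.619% were. In both comparisons 1 of the 2 is Cd5l, which met the testing limit through the libraries labelled with LPS, so nothing is read from these counts. For Western diet against chow without LPS by label, 0 of the 6 genes were called by limma in either direction (0.0678% of all genes were called higher and 0.165% lower), and 1 had an unadjusted p under 0.05. That gene is Pros1, which was named after its value was seen (-1.94 ± 0.73, adjusted p = 0.183). The differences of the other tested members were -2.95 for Gas6, -0.44 for Mertk, -0.38 for Mfge8, -0.23 for Cd5l and -0.22 for Axl (limma, adjusted p from 0.189 to 0.78), and the libraries overlapped for all 6. Without the library labelled Western diet without LPS replicate 2, both ligands were called lower there (Gas6 -4.47 and Pros1 -2.84), but so were 44.4% of all genes. A fit without the 4 libraries that go against their LPS label left a lone library in each Western diet group, assumed to vary like the chow controls. In it Gas6 differed by -2.05 and Pros1 by -1.51 with LPS against without. The 4 libraries were chosen by Ccl5, and both ligands had been seen to be lowest where Ccl5 was high. The choice thus set these signs, and they are no support for a direction. Mertk then differed by 1.37, Mfge8 by 1.78 and Cd5l by 1.90.

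The chow controls of the tables, which carry the same labels, differed in these genes. Mean levels were 79.7 in the fatty acid table and 1.04 in the Western diet table for Cd5l, a ratio of 77.0. The ratio was 16.1 for Mfge8 (94.1 and 5.84) and 9.43 for Axl, which was higher in the Western diet table (2.42 and 22.9). Gas6 differed by 2.47-fold, Mertk by 2.10-fold and Pros1 by 1.09-fold, each higher in the fatty acid table. Over the 10019 genes tested in both tables the median difference was 0.01 on the log2(value + 1) scale; 0.898% of them were lower in the Western diet table by at least 2 on that scale, as Cd5l and Mfge8 were, and 0.409% higher, as Axl was. The tables may have been normalized separately, the controls were not tested against each other, and table and library set cannot be told apart. Cells with the same label thus had Mertk above Axl in the fatty acid table and below it in the other. The ratio was 3.66 to 5.87 in the libraries labelled Western diet with LPS, and 0.260, 2.02 and 0.311 in those labelled without. By label, mean Gas6, Pros1, Mertk, Mfge8 and Cd5l were also higher with LPS than without on the Western diet, and mean Axl was lower. The mean of each gene thus differed in the same direction as between the fatty acid table's controls and the other controls. For Pros1 those controls overlapped (12.5 to 14.5 and 10.2 to 14.0), so it has no clear direction there. By label, the directions of Gas6, Pros1 and Axl reversed without the 4 libraries that go against their LPS label, which leaves a lone library a group. Whether the differences have a common source was not tested.

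Other genes of uptake were followed through lists that hold none of the 8 members. These lists, here and in the paragraphs below, were chosen with earlier results of these data known, so their counts are descriptions. With LPS, 5 of 7 tested bridging and opsonin genes fell and 1 rose. C1qb, a chain of complement C1q, went from 486 ± 32.2 to 136 ± 69.8 (SD, n = 3; log2 change -1.99), while thrombospondin gene Thbs1 went from 26.4 ± 6.62 to 91.1 ± 54.6 (1.63). Among 15 other uptake receptors, 8 fell and 4 rose: the phosphatidylserine receptor genes Cd300lb (-2.20) and Stab1 (-2.04) were among those lower, and the scavenger receptor gene Marco (2.77) was higher. Of 19 engulfment genes 11 fell and 4 rose, with Elmo1, an activator of Rac, at -1.31. Against this, 47.9% of all genes were called lower with LPS and 13.8% higher. After median-ratio scaling, where 26.9% of all genes were lower and 27.2% higher, the bridging list had 5 lower and 2 higher, the receptors 8 and 4, and the engulfment genes 7 and 5.

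With fatty acid before LPS, 5 of the 15 other receptors rose and 3 fell against LPS alone, and 10 of the 19 engulfment genes rose and 2 fell, where 21.8% and 15.3% of all genes were called. Cd300lb rose by 0.75 and Stab2, a further phosphatidylserine receptor gene, went from 0.0224 ± 0.00753 to 1.60 ± 0.604 (1.32). Dock2, which activates Rac, went from 36.1 ± 13.0 to 78.0 ± 2.64 (1.16), and Pik3c3, a lipid kinase of phagosome maturation, rose by 0.61. Of the bridging genes C1qb (1.35) and C1qa (0.91) rose, and Calr (-0.69) and Thbs1 (-1.25) fell. With TAK242 added, Stab2 fell by 1.19 and Lrp1, an endocytic receptor gene, rose by 0.65. Of the 15 receptors 1 was called each way, where 3.01% of all genes were called higher and 1.68% lower.

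Genes that process the TAM receptors or respond to them were mixed. Adam17 and Adam10 encode proteases known to cut Mertk and Axl from the cell surface. Adam17 rose with LPS from 41.8 ± 3.89 to 60.9 ± 6.27 (0.53; limma, adjusted p = 0.00373) and was lower with fatty acid at 40.7 ± 3.65 (-0.57; limma, adjusted p = 0.00606), while Adam10 moved the other way (-1.01 and 0.36). Vkorc1, whose enzyme recycles the vitamin K on which Gas6 and protein S depend, fell with LPS (-0.90) and again with fatty acid (-0.89). Socs3, a feedback inhibitor known as a TAM target, went from 0.0396 ± 0.0571 to 1.67 ± 0.195 with LPS and to 0.240 ± 0.178 with fatty acid. In all, 2 of 7 genes of this list rose and 4 fell with LPS, where 13.8% and 47.9% of all genes were called, and after median-ratio scaling 2 rose and 2 fell. With fatty acid 1 rose and 3 fell, where 21.8% and 15.3% of all genes were called. With TAK242 0 of the 7 passed, where 3.01% and 1.68% of all genes did.

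The LXR gene Nr1h3 rose with LPS from 7.24 ± 0.318 to 39.9 ± 17.3 (2.20), as did Spic (3.19), a factor of red-pulp macrophages, whereas Maf fell (-1.15). Of 10 LXR targets 7 fell and 1 rose with LPS (6 and 1 after median-ratio scaling), where 47.9% and 13.8% of all genes did, and 5 rose and 1 fell with fatty acid before LPS, where 21.8% and 15.3% of all genes did. An example is the phospholipid transfer gene Pltp, from 37.6 ± 4.85 untreated to 18.0 ± 5.02 with LPS and 100.3 ± 6.23 with fatty acid. With TAK242, 4 of the 10 fell, namely Apoc1, Apoe, Pltp and Abcg1 (-1.43 to -0.92), where 1.68% of all genes were called lower. Since this list was chosen with earlier results known, nothing is read from that contrast, and a link to Cd5l was not tested. Of 9 resident macrophage genes, 2 rose and 5 fell with LPS, and 4 rose and 1 fell with fatty acid before LPS, beside the same shares of all genes. Fcna, a soluble lectin gene, went from 3.14 ± 1.55 to 9.56 ± 0.724 (1.42), and Folr2 fell with TAK242 (-0.75). In the Western diet table, Stab2 was 2.56, 5.36 and 1.26 in the libraries labelled with LPS and at most 0.0212 in all others. Fcna was 21.0, 43.7 and 20.1 against 1.76 to 5.42. Stab2 thus met the testing limit through the group in which it is high. Id3, of the resident list, went the other way, at 0.192 to 0.394 with LPS by label against 6.91 to 20.7 without. For LPS against without by label, 1 of 15 other uptake receptors was called higher and 0 lower. Of the 9 resident genes 1 was called each way, where 0.678% of all genes were called higher and 0.281% lower.

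The genes whose levels ran most like each member were taken by Pearson's r of log2(value + 1) over the 12 libraries of the fatty acid table, among 6332 genes, as a description over points that fall into 4 groups. For Cd5l these were Timp2 (r = 0.991), Serinc3 (0.991) and Cbr2 (0.989), of which Cbr2 had means of 45.6 untreated, 3.09 with LPS, 14.3 with fatty acid and 5.29 with TAK242. For Gas6 they were Spdl1, Gyg and the mannose receptor gene Mrc1 (0.997 to 0.999), and for Pros1 Abcg3, Oxct1 and Tmem65 (0.995 to 0.997). Mertk ran with Pde1b, Arrdc3 and Adap2 (0.981 to 0.986), each highest with fatty acid before LPS. Axl ran with Nectin2, Parp3 and Dok1 (0.967 to 0.985), and Mfge8 with Crtap, Anxa3 and S100a4 (0.988 to 0.989), each lowest with fatty acid before LPS. No gene appears under more than 1 member.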

How the data were processed

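RNA from 21 libraries was sequenced. The submitters' processing notes name HISAT2 2.0.5, Trim Galore 0.4.1, FastQC 0.11.5 and CASAVA 1.8.2, and list mm10 beside mm9 with no role. The quantification step and the unit are not given in the sources used here. The deposited values behave like FPKM, since low values of genes with 1 exon step with gene length; those steps imply between 17.4 and 35.9 fragments per library in units of 1000000. Read counts were not used, and counting intervals are therefore not given. Gene coordinates in the deposited tables equal those of the GENCODE annotation of GRCm38 for the 8 genes; exons of Gas6 overlap Tmem255b on the other strand, which reached at most 0.656.

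Entries with displaced columns (36 and 35) were left out. Genes reaching 1 in at least 3 libraries of a table were kept (10476 and 10331). Their log2(value + 1) went into limma 3.58.1 (mean-variance trend) in R 4.3.3, with all libraries of a table sharing the spread and tables fitted apart. Benjamini-Hochberg adjustment covered all genes kept, with a threshold of 0.05; adjusted p-values in the text are limma's. Changes on this scale understate those of low genes. The fit was tested on simulated data. No pair of libraries held equal values in more than 0.277% of genes. Members, lists and alternatives were chosen with earlier results of these data known. The 6 tested members are described comparison by comparison and the 2 untested ones by their levels, list genes by smallest adjusted p, and the 3 likest genes per member. Summaries came from pandas 2.3.3 in Python 3.11.15, and figures from matplotlib 3.10.9. Alternatives were another filter, a pseudocount of 0.1, fits of only the 6 libraries compared, median-ratio scaling, the replicate number as a block, and libraries left out. In the fatty acid table same-numbered libraries did not deviate together (r from -0.08 to 0.20 over 18 pairs, 1 over 0.1). Pairs of different numbers gave -0.19 to 0.15 over 36 pairs, 1 over 0.1. In the Western diet table r ran from -0.67 to 0.76 over 3 same-numbered pairs, 2 over 0.1. Pairs of different numbers gave -0.79 to 0.74 over 24 pairs, 2 over 0.1. So few same-numbered pairs cannot decide whether the numbers are pairs there. The numbers were not taken as pairs in either table. With them as a block, 0 of 10331 genes were called for LPS on the Western diet by label.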

Additional observations from a re-analysis of the deposited data

Results flagged for a closer look

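Mfge8 and Cd5l moved in opposite directions with LPS in the tables, by label. On the log2(value + 1) scale Mfge8 changed by -1.31 in chow macrophages of the fatty acid table and by 3.25 with LPS by label on the Western diet, and Cd5l by -4.76 and 3.30. Every LPS library was below every untreated library in the first table, and every library labelled with LPS was above every library labelled without in the second. The untreated chow controls also differed between the tables, with means of 94.1 and 5.84 for Mfge8 and 79.7 and 1.04 for Cd5l. The difference between the tables was not tested, since they may have been normalized separately and Ccl5 goes against the LPS label in 4 of the 6 Western diet libraries. No test of a library far from the others was made, because groups of 3 are too small for it.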

How the results depend on the processing

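The count of members called was recomputed in 55 fits with other settings, of which 46 stayed within 1.5 times the count reported. With no filter on low values it was 1 in place of 2 for TAK242 with fatty acid against fatty acid, 0 in place of 2 for fatty acid and TAK242 against LPS alone, and 1 in place of 2 for Western diet with LPS by label against either control. With only the 6 libraries compared it was 0 for fatty acid and TAK242 against LPS alone and 0 for LPS on the Western diet by label. The replicate number as a block gave 0 for LPS on the Western diet by label and, on the same side of 1.5 times, passed Mertk with LPS (-0.51, adjusted p = 0.0208) and Mertk with fatty acid and TAK242 against LPS alone (adjusted p = 0.0368). It changed no other call.

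The fit without the 4 libraries that go against their LPS label leaves a lone library a group, so only its directions are given. For LPS on the Western diet by label, Gas6 (-2.05), Pros1 (-1.51) and Axl (0.34) reversed. Gas6 also reversed for Western diet with LPS by label against chow (-1.93), and Gas6 (0.11) and Mfge8 (0.02) did for Western diet against chow without LPS. Axl reversed there after median-ratio scaling (0.19) and without Western diet replicate 2 labelled without LPS (0.50; range over left-out libraries -0.60 to 0.50), and Gas6 against chow reversed without replicate 1 or 2 labelled with LPS (-0.08 and -0.14; range over left-out libraries -0.14 to 1.72).

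With each library left out in turn the count ran from 4 to 5 for LPS in chow cells, 5 to 6 for fatty acid against LPS alone, 1 to 1 for TAK242, 0 to 6 for fatty acid and TAK242 against LPS alone, 0 to 6 for LPS on the Western diet by label, 0 to 2 for the same libraries against chow and 0 to 2 for Western diet against chow. The 6 came without Western diet replicate 2 labelled without LPS, and in the TAK242 comparison without LPS replicate 3. Against untreated cells it stayed at 6 with fatty acid and at 5 with TAK242 added. The counts of the other gene lists were recomputed after median-ratio scaling, which was chosen after seeing the data. Where a count changed, the cause was not tested. With 3 libraries a group and no read counts, the depth behind each value is known only as an estimate.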
